A study of Homo sapiens with 240 samples.

Results

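The SR proteins are splicing factors with an RNA-binding domain and a tail of alternating arginines and serines. They bind enhancer sequences in exons and help the U1 and U2 particles to choose splice sites, and some also take part in export and translation of mRNA. Their own genes are known for exons that, when included, send the transcript to nonsense-mediated decay, so that the amount of mRNA is kept within limits. The genes described here are SRSF1, SRSF2, SRSF3, SRSF4, SRSF5, SRSF6, SRSF7, SRSF9, SRSF10 and SRSF11, taken by their symbols. They are 10 of the 27234 genes listed in each of 5 expression tables. The set was selected on measured values, with results of these data in view: SRSF5 and SRSF6 were lower with the compound 991 in every control arm. The changes with 991 in control arms are therefore described and not tested.

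The study measured polyadenylated RNA of HEK 293T, a line of human embryonic kidney origin that carries the SV40 large T antigen. It comprises 240 libraries in 80 groups of 3. 991 activates AMPK, a kinase that is switched on when ATP runs short. In the AMPK experiment, WT and AMPK KO cells received DMSO, or 991, CCCP, phenformin or rotenone for 2, 4, 8 and 16 h. CCCP uncouples the mitochondrial membrane, and phenformin and rotenone inhibit complex I of the respiratory chain. In the FNIP1 experiment, FNIP1 knockout cells had been given back WT FNIP1 or SA5 FNIP1, whose 5 AMPK phosphorylation sites are alanines, and received DMSO or 991 for 2, 4, 8 and 16 h. FNIP1 is a partner of folliculin in lysosomal signalling. TFEB+TFE3 KO cells and their WT cells, ESRRA KO cells and their WT cells, and cells with siRNA against PGC1A or with control siRNA received DMSO or 991 for 2, 4, 8, 16 and 24 h. TFEB and TFE3 are transcription factors of lysosomal genes, and ESRRA and PGC1A are a nuclear receptor and a coactivator that act on mitochondrial genes. DMSO was sampled at 0 h only, so compound and time in culture cannot be told apart in any change reported below. The labels give no doses, do not say whether a knockout line is 1 clone, and do not say whether libraries of a group came from separate cultures, so p-values measure the spread between these libraries, which may be technical. For 3 WT libraries tagged as phenformin at 2 h the description reads 991, and for 3 WT libraries tagged as CCCP at 4 h it reads 16 h. They were placed by their tags.

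Levels are in TPM, a share of transcripts corrected for length, without read counts, so the depth of each library is unknown. The listed values of a library added up to between 396341 and 410901 in the AMPK experiment and between 410713 and 449208 in the FNIP1 experiment. They are therefore not shares of a fixed total over the listed genes. Of 6 genes expected in HEK 293T, 4 or 5 reached a median of 1 TPM in each table, and none of 6 genes of differentiated kidney did. Of 12 markers of other cell types, 1 or 2 collagen genes did. The knocked-out or knocked-down genes were not at 0 under DMSO, and 1 of them, TFEB, overlapped between the arms. ESRRA stood at 4.44, 4.57 and 5.69 TPM in ESRRA KO cells and 8.01, 8.24 and 8.27 TPM in their WT cells, and PRKAA1, a catalytic subunit of AMPK, at 2.16, 2.80 and 2.67 against 6.27, 7.15 and 7.41 TPM. PRKAA2, the other catalytic subunit, stood at 4.51, 4.10 and 4.46 against 6.37, 5.68 and 6.005 TPM. In TFEB+TFE3 KO cells TFEB stood at 1.63, 1.58 and 1.91 against 1.80, 2.20 and 2.22 TPM and TFE3 at 8.44, 7.18 and 7.62 against 10.3, 9.79 and 9.23 TPM. PPARGC1A, the gene of PGC1A, stood at 0.0940, 0.0420 and 0.0310 TPM with its siRNA and 0.327, 0.265 and 0.340 TPM with control siRNA, below 1 TPM in both. FNIP1 stood between 2.08 and 7.17 TPM in the AMPK experiment and between 3.45 and 5.68 TPM in the TFEB and TFE3 experiment. It stood between 146 and 241 TPM in the ESRRA experiment, at 129 to 179 TPM with control siRNA and at 223 to 290 TPM with siRNA against PGC1A, beside 221 to 271 TPM in the cells with reintroduced WT FNIP1. The labels do not mention FNIP1 for the ESRRA and PGC1A experiments. The library labelled SA5 FNIP1, DMSO, replicate 1 had 5.47 TPM of FNIP1, against 179 and 172 TPM in the other 2 of its group, and the library labelled SA5 FNIP1, 991 for 8 h, replicate 1 had 45.05 TPM, against 184 and 179 TPM. Their mean correlations with the other 2 libraries of their groups were 0.891 and 0.966, while outside these 2 groups no library was below 0.986. The SA5 FNIP1 results described for single SR genes at 16 h, for the whole course and under DMSO are given with and without these 2 libraries.

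Because the study turns on TFEB, TFE3 and ESRRA, the sequence before the start of each SR gene was read from RefSeq on GRCh38.p14, which held 9 of the 10 genes (not SRSF2). In the 250 bases before the RefSeq start, none of the 9 contained CACGTG, the core of the element bound by TFEB and TFE3, which 6.49% of 27305 promoters contained. None contained AAGGTCA, the element bound by ESRRA, which 3.46% contained. TGACGT, part of the element bound by CREB and ATF factors, was present before SRSF1, SRSF3 and SRSF5 (7.42% of all promoters), and CCGGAAG, an ETS core, before SRSF4 and SRSF5 (8.82%). CCAAT, the box bound by NF-Y, was present before SRSF3 (33.04%), and TATAAA, the TATA box, in the windows of SRSF3 and SRSF11 (11.13%). The RefSeq start is not always that of the transcript counted in the tables: all 250 bases of the SRSF11 window lie inside the counted transcript, as do 225 for SRSF4, 136 for SRSF10, 100 for SRSF1 and 7 for SRSF9. All motifs were searched on both strands. A match describes letters only, and its absence says only that these letters were not in the window. The sequences of the 3 genes that fell most at 16 h of phenformin, and of SRSF3, which had matches to 3 of the 6 motifs, are shown upstream of the transcript counted in the tables, so that the last 55 bases before SRSF5, the last 32 before SRSF6 and the last 49 before SRSF3 are left out. The TGACGT match of SRSF5 and the TATAAA match of SRSF3 lie in the bases left out. The CCGGAAG match of SRSF5 starts in the last 2 bases shown and runs on into those left out. Capitals mark matches to TGACGT and CCAAT on either strand.
SRSF5, chr14:69766892-69767086, plus strand: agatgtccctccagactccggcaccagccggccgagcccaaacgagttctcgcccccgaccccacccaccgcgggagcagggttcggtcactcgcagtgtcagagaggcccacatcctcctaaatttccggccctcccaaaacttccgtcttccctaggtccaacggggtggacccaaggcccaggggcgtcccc
SRSF6, chr20:43457646-43457863, plus strand: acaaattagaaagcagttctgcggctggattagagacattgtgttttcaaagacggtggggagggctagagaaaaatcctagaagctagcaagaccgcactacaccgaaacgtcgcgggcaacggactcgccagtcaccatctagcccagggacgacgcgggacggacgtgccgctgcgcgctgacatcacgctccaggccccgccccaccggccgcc
SRSF7, chr2:38751495-38751744, minus strand: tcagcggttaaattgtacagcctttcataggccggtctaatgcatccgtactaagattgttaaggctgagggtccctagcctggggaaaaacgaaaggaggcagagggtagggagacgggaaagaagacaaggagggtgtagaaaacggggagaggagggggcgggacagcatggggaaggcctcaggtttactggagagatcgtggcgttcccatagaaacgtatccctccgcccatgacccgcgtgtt
SRSF3, chr6:36594112-36594312, plus strand: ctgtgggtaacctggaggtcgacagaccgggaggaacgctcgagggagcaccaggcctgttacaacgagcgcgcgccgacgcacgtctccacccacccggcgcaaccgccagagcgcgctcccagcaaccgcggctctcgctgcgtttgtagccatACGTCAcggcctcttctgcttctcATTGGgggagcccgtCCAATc
The tables count 1 transcript per gene on GRCh38. SRSF5 is NM_006925, chr14:69767087-69772005 on the plus strand, and SRSF6 is NM_006275, chr20:43457864-43463604 on the plus strand. SRSF7 lies at chr2:38743599-38751494 on the minus strand and is listed as another transcript in the AMPK table (NM_001031684) than in the other 4 (NM_001195446), so its levels are compared only within a table. On the plus strand lie also SRSF3 (NM_003017) at chr6:36594313-36604467 and SRSF11 (NM_004768) at chr1:70205682-70252018. On the minus strand lie SRSF1 (NM_006924) at chr17:58000919-58007346, SRSF2 (NM_001195427) at chr17:76734115-76737411, SRSF4 (NM_005626) at chr1:29147738-29182125, SRSF9 (NM_003769) at chr12:120461668-120469755 and SRSF10 (NM_001300937) at chr1:23964347-23980463. SRSF5 overlaps LOC100289511 and SRSF9 overlaps GATC on the opposite strand, and SRSF2 overlaps MIR636 on its own strand. Whether counting used the strand is not stated, so reads in these overlaps cannot be told apart.

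Under DMSO the SR genes differed widely in level per length. In WT cells of the AMPK experiment SRSF9, a small SR protein, was highest at 389 ± 7.67 TPM (mean ± SD, n = 3), and SRSF10, which turns into a repressor of splicing when it loses its phosphates, was lowest at 31.3 ± 1.52 TPM. Between them stood SRSF2 at 231, SRSF3 at 203, SRSF5 at 186, SRSF7 at 175, SRSF1 at 110.6, SRSF6 at 83.001, SRSF11 at 67.5 and SRSF4 at 54.3 TPM. Of the 9 pairs of neighbours in this order, only the libraries of SRSF5 and SRSF7 overlapped. SRSF9 was highest and SRSF10 lowest in all 10 arms, and ranks 2 to 5 were held by SRSF2, SRSF3, SRSF5 and SRSF7 in the 5 control arms. SRSF6 stood apart in WT cells of the TFEB and TFE3 experiment, with 158, 157 and 146 TPM against 69.8 to 91.8 TPM on average in the other control arms, a comparison across tables that were normalized separately.

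**Figure D1:**
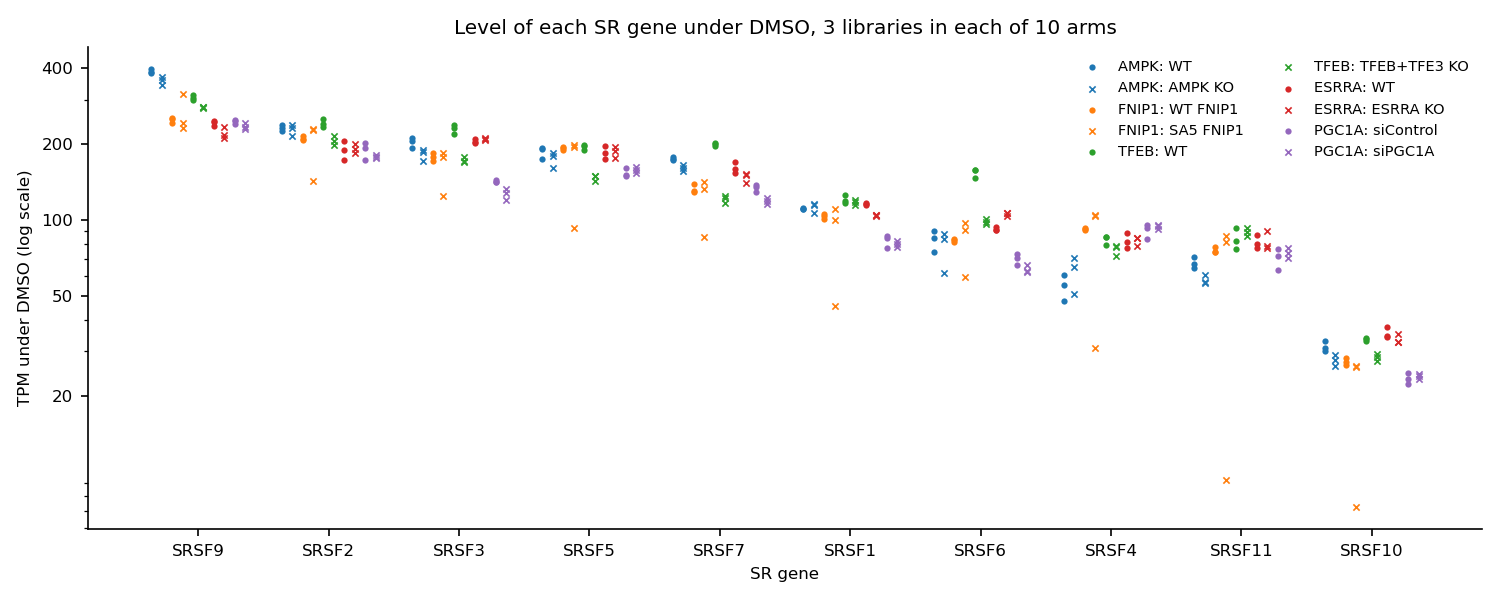
TPM of each SR gene under DMSO on a log axis, with 1 point per library, 3 libraries per arm, circles for control arms and crosses for altered arms. SRSF9 is highest and SRSF10 lowest, and 1 cross of SA5 FNIP1 (replicate 1) lies below its group for every gene except SRSF9, where it lies above.

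In the control arms SRSF5 was lower after 16 h of 991 in every library. SRSF5 acts on exons that respond to hormones, among them exons of the insulin pathway. WT cells of the AMPK experiment had 175, 192 and 192 TPM under DMSO and 63.6, 58.4 and 55.4 TPM after 16 h of 991, or 31.8% of the DMSO mean. WT cells of the TFEB and TFE3 experiment went from 196, 189 and 197 to 62.3, 63.9 and 60.9 TPM. The libraries did not overlap in either case. With control siRNA, where SRSF5 started lower, it went from 150.2, 149.7 and 160.1 to 80.4, 74.6 and 79.3 TPM. Differences from DMSO at 16 h, on the log2(TPM + 1) scale used for all differences below, ran from -1.64 to -0.96 for SRSF5 and from -1.87 to -0.64 for SRSF6 in the 5 control arms. SRSF7, which was not named by the rule, ran from -1.29 to -0.50, SRSF3 from -0.89 to -0.28, SRSF9 from -0.42 to -0.24, SRSF2 from -1.06 to -0.17 and SRSF10 from -0.51 to -0.14, so these 5 were lower in all 5 arms as well. In WT cells of the AMPK experiment 7 of 10 SR genes had all 3 libraries below DMSO at 16 h, as did 29.5% of all genes, and nothing is read from that count.

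In the altered arms, where 991 was tested, SRSF5 fell as well. AMPK KO cells had 160.3, 179.9 and 184 TPM under DMSO and 65.7, 68.6 and 70.01 TPM after 16 h of 991. No treated library reached the lowest DMSO library, and the difference was -1.35 ± 0.086 (± SE, limma adjusted p = 2.2e-22). TFEB+TFE3 KO cells went from 149, 142 and 149 to 84.2, 78.03 and 80.7 TPM, a difference of -0.85 ± 0.045 (adjusted p = 1.9e-14). ESRRA KO cells went from 195, 175 and 188 to 75.2, 76.8 and 79.5 TPM, a difference of -1.26 ± 0.050 (adjusted p = 2.7e-17). With siRNA against PGC1A it went from 158, 153 and 162 to 91.1, 80.6 and 85.2 TPM (adjusted p = 2.6e-14). Treated and DMSO libraries were apart in each of these 4 arms, and at 16 h all 12 treated libraries lay between 65.7 and 91.1 TPM.

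SRSF6, whose protein acts on an exon of the tau gene among others, had fallen by 2 h of 991 in the same 4 arms, by 0.35 ± 0.076 in AMPK KO cells and 0.63 ± 0.036 in TFEB+TFE3 KO cells. Counted over the family at 2 h of 991, 2 SR genes were called lower in AMPK KO cells, 7 in TFEB+TFE3 KO cells, 7 in ESRRA KO cells and 3 with siRNA against PGC1A, beside 10.7%, 8.17%, 16.7% and 6.74% of all genes. SRSF5 did not pass the test at 2 h in any of them, with differences between -0.12 and 0.029. The difference between the 2 genes was not tested. ESRRA KO cells had 103.3, 106.7 and 105.9 TPM of SRSF6 under DMSO and 67.8, 68.97 and 66.6 TPM at 2 h (adjusted p = 2.6e-13), while SRSF5 stood at 191, 188 and 190.2 TPM. In TFEB+TFE3 KO cells SRSF6 was lowest at 4 h, with 44.2, 44.9 and 42.5 TPM against 100.7, 96.5 and 97.6 TPM under DMSO, a difference of -1.15 ± 0.036 (adjusted p = 1.6e-19). In AMPK KO cells its course was uneven, with 55.1, 58.4 and 61.7 TPM at 4 h, 70.3, 67.98 and 78.7 TPM at 8 h and 50.6, 48.1 and 51.1 TPM at 16 h. The step up from 4 to 8 h was 0.30 ± 0.076 (adjusted p = 0.0016), in a comparison of neighbouring times that was chosen after the courses had been seen. Of the 3 DMSO libraries of AMPK KO cells, 1 was low for SRSF6, at 61.6 TPM against 87.7 and 84.1 TPM.

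**Figure D2:**
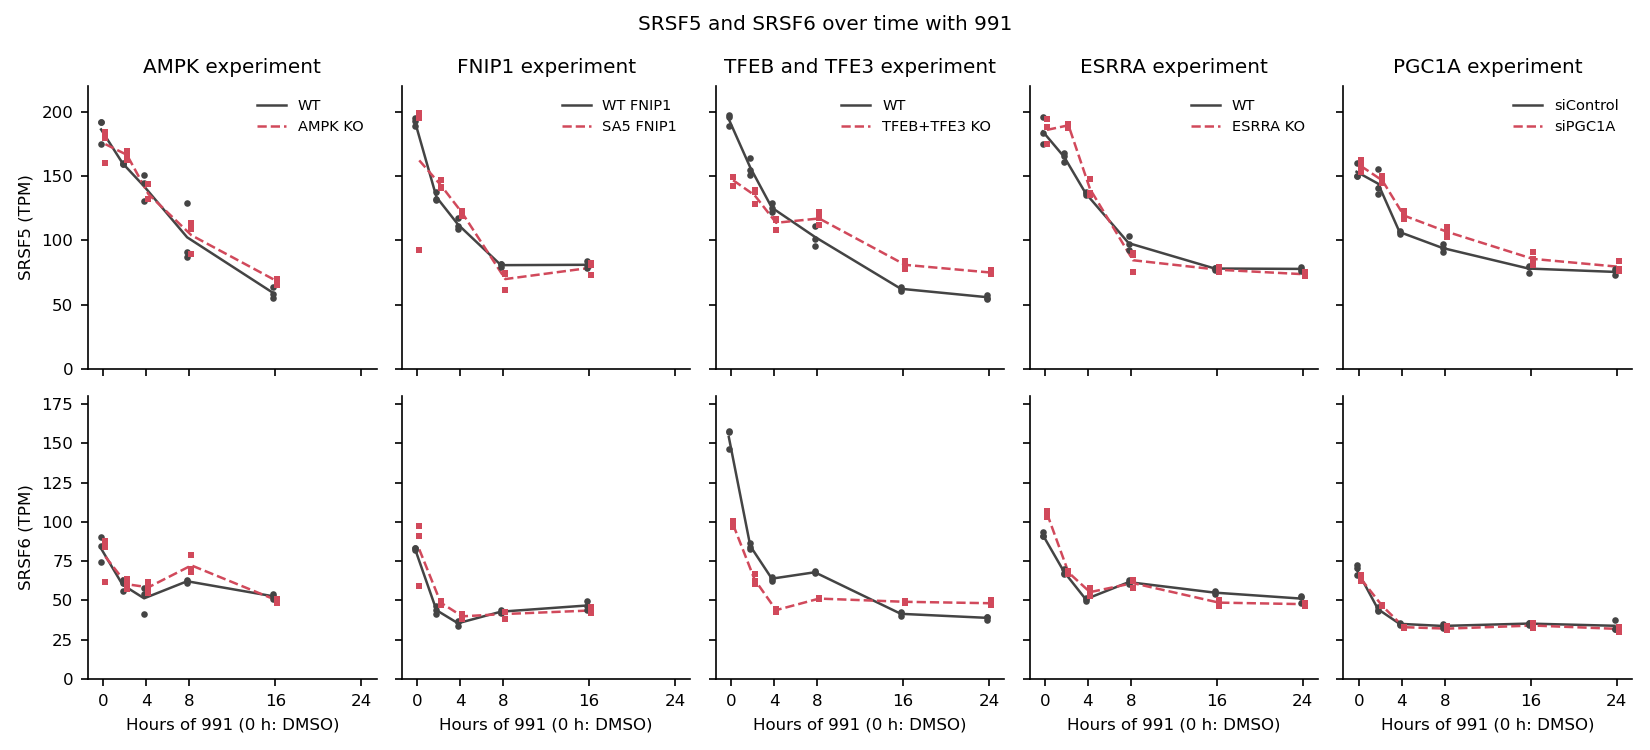
TPM of SRSF5 (top) and SRSF6 (bottom) against hours of 991 in the 5 experiments, with points for libraries and lines through means of 3; grey is the control arm and red dashed the altered arm. SRSF5 is nearer its DMSO level at 2 h than at 16 h in every arm, SRSF6 is below DMSO from 2 h on in most arms, and 1 SA5 FNIP1 library under DMSO lies low in both rows.

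With SA5 FNIP1 the same 2 genes fell, but the values depended on the 2 libraries that stand apart. SRSF5 stood at 92.7, 199 and 195 TPM under DMSO and at 73.05, 82.5 and 80.8 TPM after 16 h of 991. With all libraries the difference was -0.95 ± 0.16 (adjusted p = 1.5e-04), and without the 2 it was -1.31 ± 0.042 (adjusted p = 6.8e-16). SRSF6 differed by -0.87 ± 0.11 with them and -1.09 ± 0.051 without. SRSF11 and SRSF4 turned from higher to lower at 16 h, from 0.61 to -0.40 ± 0.063 and from 0.26 to -0.31 ± 0.033. So did SRSF10 and SRSF1, from 0.32 to -0.25 ± 0.069 and from 0.14 to -0.26 ± 0.049. None of these rises had passed the test with all libraries. Over the whole course 5 SR genes changed with all libraries, as did 33% of all genes, and 10 changed without the 2, as did 63.2%. Without replicate 2 or replicate 3 the count was 2, beside 9.87% and 8.32% of all genes.

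At 16 h of 991 most SR genes were lower in the altered arms. In TFEB+TFE3 KO cells 9 fell and none rose (all genes: 12.5% lower, 35.7% higher), with siRNA against PGC1A 8 fell and none rose (12.7% and 39.2%), and in ESRRA KO cells 7 fell and none rose (12.9% and 31.5%). In AMPK KO cells 7 fell and SRSF4 rose (27.1% and 34.8%). The SR genes were picked with such falls in view, so these counts describe the set and are no independent evidence. At an unadjusted p under 0.05 SRSF11 was the 1 SR gene higher in TFEB+TFE3 KO cells and with siRNA against PGC1A, and none was in ESRRA KO cells. With quantile normalization it passed the adjusted test in both. The median of all genes was 0.11 in TFEB+TFE3 KO cells and 0.14 with siRNA against PGC1A. Relative to that median SRSF5 stood -0.96 and -1.01 apart, and SRSF6 -1.10 and -1.02. Over the whole course all 10 SR genes changed in each of these 4 arms, beside 79.6%, 70.3%, 79.4% and 70.6% of all genes in AMPK KO, TFEB+TFE3 KO, ESRRA KO and siRNA-treated cells.

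**Figure D3:**
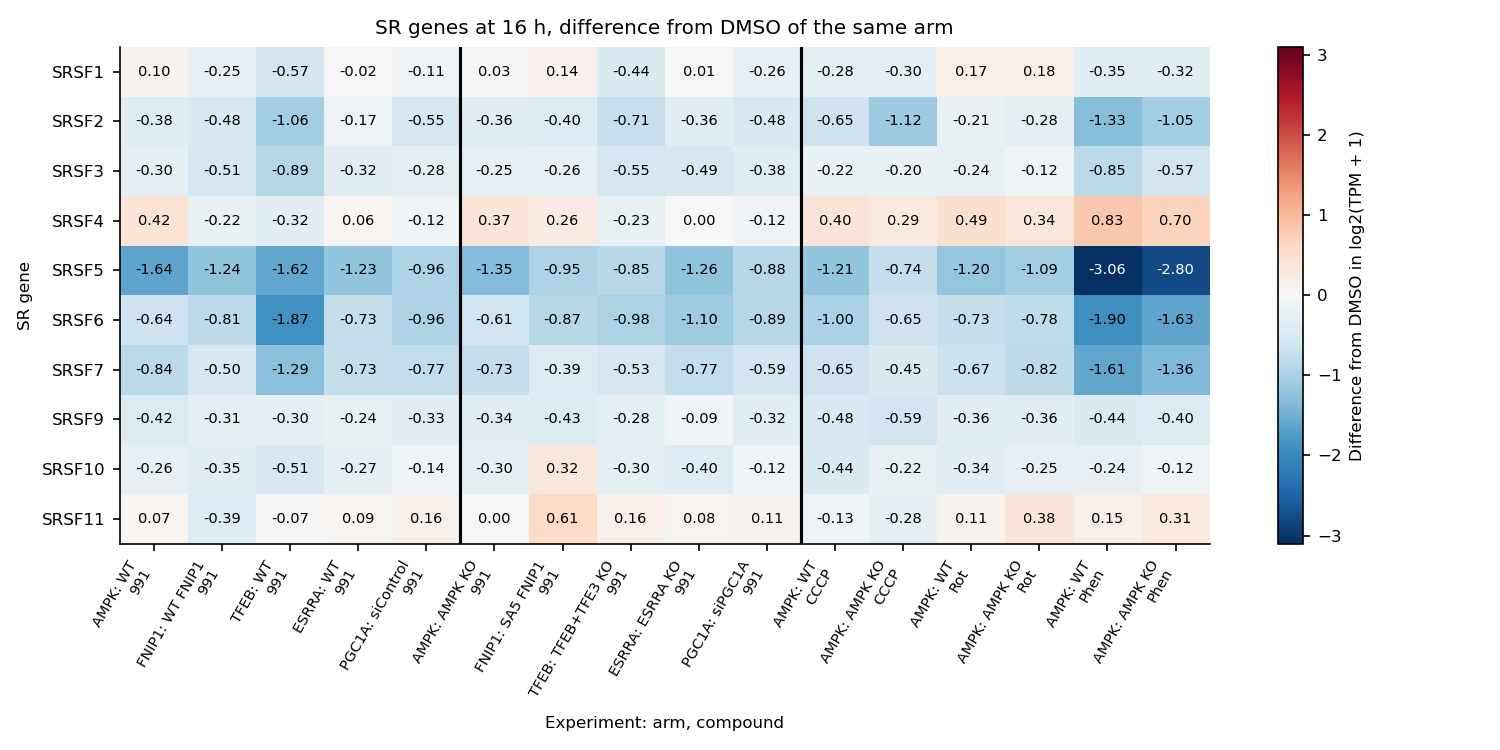
Difference from DMSO of the same arm at 16 h in log2(TPM + 1) for each SR gene (rows) and each arm and compound (columns), blue for lower and red for higher; black lines part control arms with 991, altered arms with 991, and the poisons. SRSF5 and SRSF6 are lower in all 16 columns and SRSF5 is lowest with phenformin, at -3.06 in WT and -2.80 in AMPK KO cells. The SA5 FNIP1 column holds all libraries, and SRSF11 and SRSF4 there go to -0.40 ± 0.063 and -0.31 ± 0.033 without the 2 that stand apart. SRSF10 and SRSF1 in that column go to -0.25 ± 0.069 and -0.26 ± 0.049.

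The other SR genes followed courses of their own with 991. SRSF7, which with SRSF3 hands mRNA to the export receptor, was higher at 4 h than at 2 h and low at 16 h. The step from 2 to 4 h was upward and passed the test in all 4 altered arms, between 0.15 and 0.57. Of all genes, 17.3%, 13.1%, 26.1% and 14.4% were called higher in that step in AMPK KO cells, TFEB+TFE3 KO cells, ESRRA KO cells and with siRNA against PGC1A. Among them ESRRA KO cells showed the widest swing, with 152, 139.7 and 150.5 TPM under DMSO, 211, 191 and 203 TPM at 4 h, 198, 183 and 199 TPM at 8 h and 81.3, 88.6 and 88.05 TPM at 16 h. The libraries at 4 h lay above and those at 16 h below all DMSO libraries. The rise at 4 h was 0.45 ± 0.047 (adjusted p = 1.4e-08) and the step from 8 to 16 h was -1.16 ± 0.047 (adjusted p = 1.4e-16). AMPK KO cells were below DMSO already at 8 h, by 0.23 ± 0.047. Steps from 8 to 16 h of -0.60 ± 0.031, -0.62 ± 0.048 and -0.50 ± 0.047 passed the test in TFEB+TFE3 KO cells, with siRNA against PGC1A and in AMPK KO cells. In the same step 9.91%, 7.13%, 12.4% and 7.29% of all genes were called lower, in the order of arms used for the earlier step. In the control arms the same step ran from -1.33 to -0.43, without a test. In the 3 altered arms with a 24 h sample the step from 16 to 24 h was upward and small, at 0.24 ± 0.047 in ESRRA KO cells (adjusted p = 0.0076), and did not pass in the other 2.

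SRSF1, the first SR protein described and a driver of growth when in excess, was lower at 4 and 8 h and higher again at 16 h. In TFEB+TFE3 KO cells it went from 117.99, 119.8 and 114.7 TPM to 67.7, 74.7 and 69.8 TPM at 8 h and 98.4, 106.9 and 92.1 TPM at 24 h, all below DMSO. The step from 8 to 16 h was upward in all 4 altered arms, between 0.25 and 0.36, and passed the test in each, beside 13.5%, 11.4%, 17.8% and 10.4% of all genes. Among the control arms it was downward in WT cells of the TFEB and TFE3 experiment, at -0.12 ± 0.045, and upward in the other 4. At 16 h SRSF1 differed from DMSO by 0.028 ± 0.070 in AMPK KO cells (adjusted p = 0.75) and by 0.0099 ± 0.035 in ESRRA KO cells (adjusted p = 0.84), where median-ratio scaling gave a fall of 0.080. SRSF2, a mark of nuclear speckles where splicing factors gather, was lowest at 4 h in 3 of the 4 altered arms, and in ESRRA KO cells it stood then at 109.6, 118.8 and 108.1 TPM against 184, 201 and 191 TPM under DMSO (adjusted p = 2.2e-12). AMPK KO cells were the exception, with 215, 239 and 231 TPM under DMSO, 178, 207 and 207 TPM at 4 h, 244, 244 and 275 TPM at 8 h and 184, 178 and 171 TPM at 16 h. In their WT cells SRSF2 stood at 186, 189.7 and 197 TPM at 8 h, below all DMSO libraries. The response of AMPK KO cells at 8 h exceeded that of WT cells by 0.43 ± 0.089, an estimate without a test because it contains the contrast by which the genes were chosen.

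SRSF11, a regulator of splice site choice, was higher at 8 h than at 4 h in 3 of the 4 altered arms, beside 17%, 8.97%, 19.5% and 4.12% of all genes called higher, with siRNA against PGC1A last. The step from 4 to 8 h was 0.67 ± 0.069 in ESRRA KO cells (adjusted p = 3.7e-08) and 0.62 ± 0.092 in AMPK KO cells (adjusted p = 4.3e-07). It was smaller in TFEB+TFE3 KO cells, at 0.22 ± 0.067, and with siRNA against PGC1A it did not pass, at 0.11 ± 0.055 (adjusted p = 0.23). SRSF9 declined slowly without a rebound, from 368, 344 and 360.0 to 283, 279 and 283 TPM in AMPK KO cells (adjusted p = 1.9e-18). SRSF3, the smallest of the family, was lower at 16 h in all 4 altered arms, between -0.55 and -0.25, and SRSF10 fell in 3 of them, with -0.12 ± 0.068 (adjusted p = 0.14) in the fourth. SRSF4, the largest of the family, went in different directions: it rose by 0.37 ± 0.10 in AMPK KO cells and fell by 0.23 ± 0.046 in TFEB+TFE3 KO cells.

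**Figure D4:**
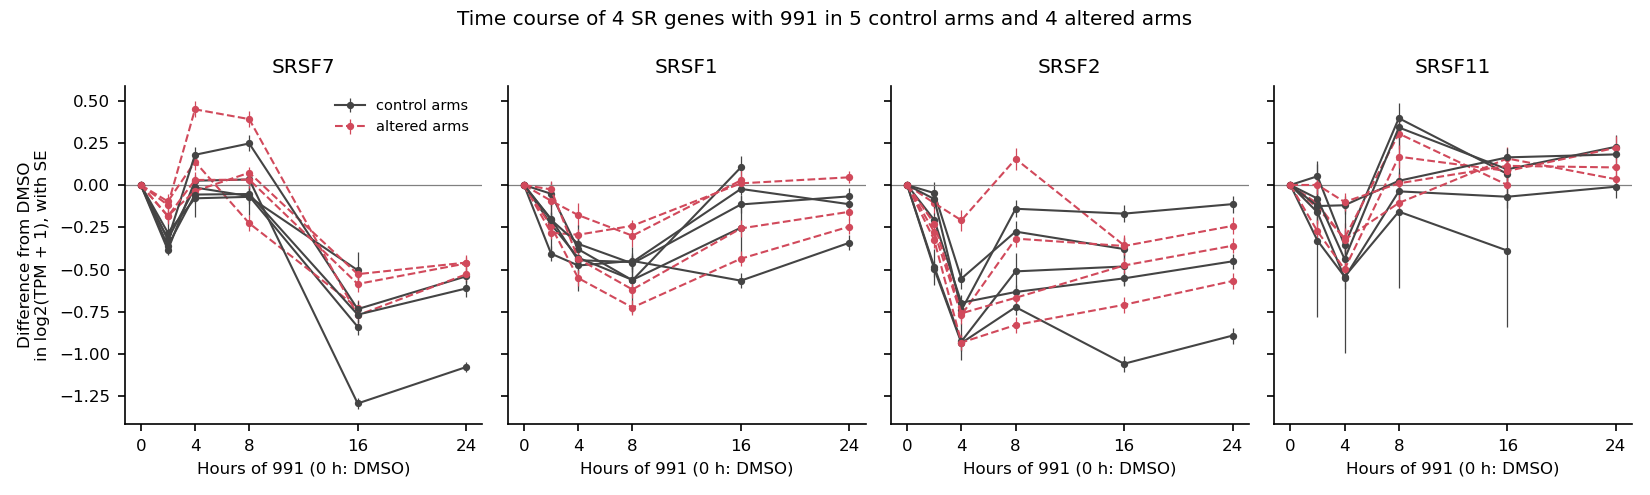
Difference from DMSO in log2(TPM + 1) with its SE against hours of 991 for SRSF7, SRSF1, SRSF2 and SRSF11 in the 5 control arms (grey) and in the altered arms other than SA5 FNIP1 (red dashed). SRSF7 is near 0 or above at 4 and 8 h in most arms and low at 16 h, SRSF1 is low at 4 and 8 h, and SRSF2 and SRSF11 are lowest at 4 h in most arms.

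The mitochondrial poisons split the family. In the AMPK experiment the poisons of each genotype share its 3 DMSO libraries, which in WT cells also entered the contrast by which the genes were chosen. SRSF5 fell with all 3 poisons in both genotypes. With phenformin WT cells went from 175, 192 and 192 TPM to 112.6, 90.1 and 96.3 TPM at 4 h, 43.5, 31.9 and 29.2 TPM at 8 h and 21.3, 22.3 and 20.8 TPM at 16 h. The level at 16 h was 8.67-fold below DMSO, a difference of -3.06 ± 0.086 (adjusted p = 5.7e-45). AMPK KO cells stood at 25.2, 24.8 and 22.9 TPM, 7.20-fold below their DMSO libraries (adjusted p = 2.5e-42). Rotenone left 82.5, 80.1 and 79.1 TPM in WT and 81.8, 80.9 and 82.1 TPM in AMPK KO cells, and CCCP 77.02, 81.02 and 80.7 and 102.8, 102.003 and 107.8 TPM. With CCCP, SRSF5 was already at 78.8, 81.1 and 83.1 TPM at 4 h in AMPK KO cells and higher again at 8 h, a step of 0.35 ± 0.086 (adjusted p = 5.3e-04).

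SRSF6 rose with phenformin before it fell. WT cells had 74.3, 90.4 and 84.3 TPM under DMSO, 97.6, 103.2 and 103.2 TPM at 4 h and 21.6, 21.6 and 21.3 TPM at 16 h, so that the libraries at 4 h lay above and those at 16 h below all of DMSO. The differences were 0.29 ± 0.076 (adjusted p = 6.4e-04) and -1.90 ± 0.076 (adjusted p = 1.4e-35). AMPK KO cells went the same way, to 95.6, 97.7 and 98.4 TPM at 4 h and 24.9, 23.6 and 24.1 TPM at 16 h. Rotenone gave no call for SRSF6 at 2 and 4 h in either genotype and a fall at 8 and 16 h, to 50.8, 48.3 and 49.7 TPM in WT cells (adjusted p = 4.3e-13). CCCP lowered it at every time in both genotypes, to 40.8, 41.8 and 40.3 TPM at 16 h in WT cells.

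SRSF4 and SRSF11 rose. SRSF4 went from 47.5, 60.4 and 55.1 TPM in WT cells to 114.2, 125.7 and 112.999 TPM with CCCP, 104.5, 127.5 and 119.9 TPM with phenformin and 89.9, 102.2 and 99.7 TPM with rotenone at 4 h. The CCCP libraries of this group are among those whose description disagrees with the tags. All 9 treated libraries were above all of DMSO, by 2.16, 2.16 and 1.79 times on average (adjusted p = 8.4e-15, 9.1e-15 and 4.3e-10). AMPK KO cells rose 2.06, 2.17 and 1.73 times. SRSF4 was called higher with every poison at every time in both genotypes, although with median-ratio scaling it no longer passed at 16 h of CCCP in AMPK KO cells. SRSF11 rose with phenformin at 4 h, from 71.3, 64.5 and 66.6 to 105.8, 133 and 124.8 TPM in WT cells (adjusted p = 2.5e-12) and from 56.5, 60.2 and 56.2 to 103.2, 114.9 and 117.5 TPM in AMPK KO cells (adjusted p = 1.7e-14). With CCCP it was lower at 8 h in both, by 0.21 and 0.37.

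With phenformin SRSF2, SRSF3 and SRSF7 were lowest at 16 h. SRSF2 first rose by 0.20 ± 0.063 at 4 h in AMPK KO cells, to 251, 268 and 266 TPM from 215, 239 and 231 TPM, and stood at 112.2, 107.8 and 107.8 TPM at 16 h. WT cells went from 226, 238 and 231 to 95.6, 87.6 and 91.4 TPM at 16 h (adjusted p = 4.7e-31). SRSF7 reached 55.1, 60.02 and 55.1 TPM with phenformin at 16 h from 173, 174 and 177 TPM in WT cells, and was below DMSO at 4 and 8 h too, by 0.15 and 1.01. With CCCP SRSF3 was lowest at 8 h, at 118.3, 113.02 and 114.1 TPM in AMPK KO cells, and came back by 16 h, a step of 0.46 ± 0.060 (adjusted p = 1.2e-09). SRSF1 rose by 0.32 ± 0.070 at 4 h of phenformin and fell by 0.35 ± 0.070 at 16 h in WT cells. SRSF9 and SRSF10 lay between -0.59 and -0.12 at 16 h with all poisons.

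**Figure D5:**
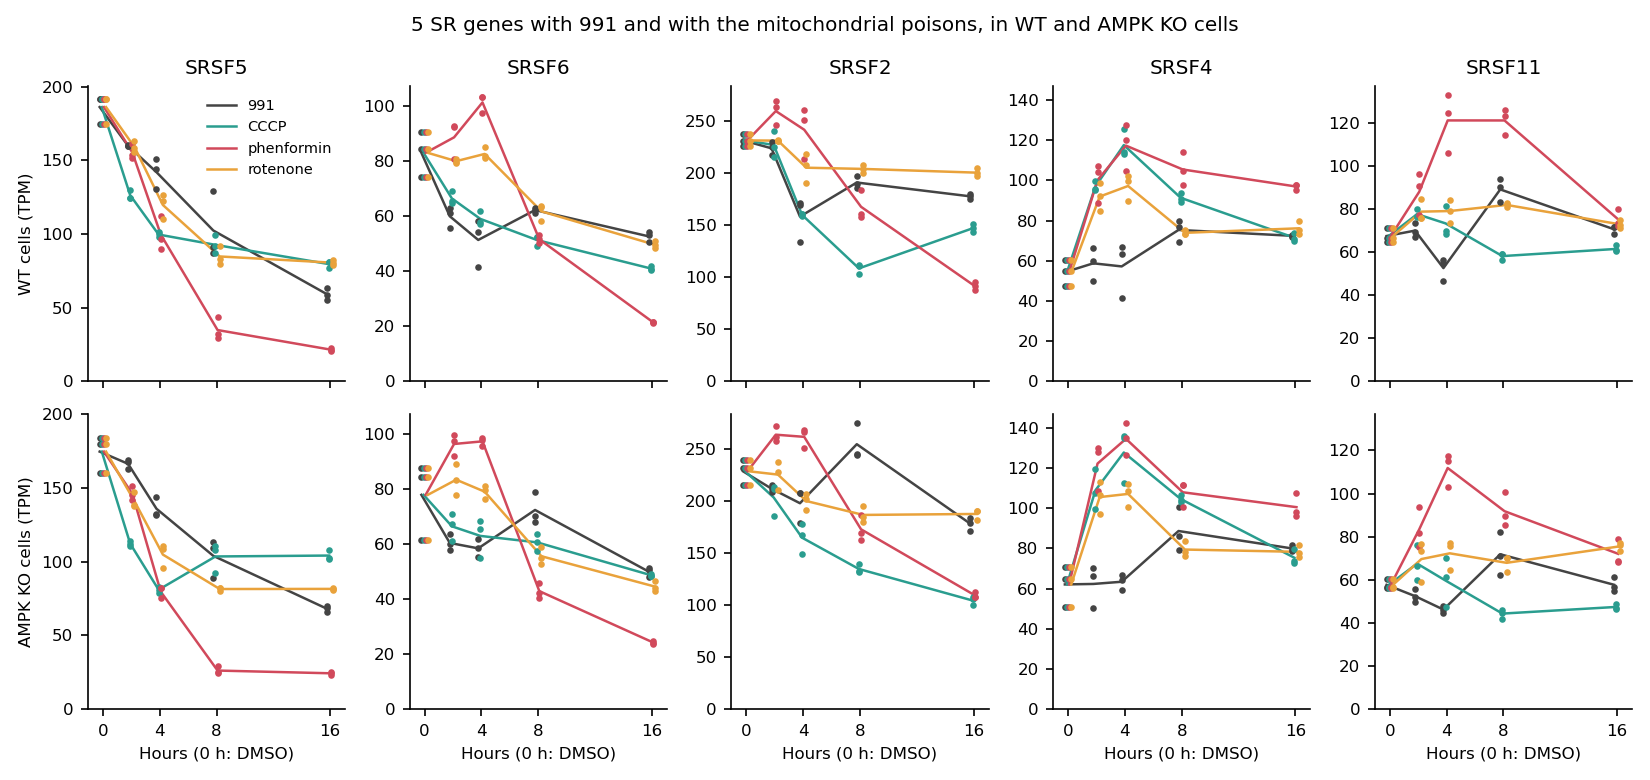
TPM of SRSF5, SRSF6, SRSF2, SRSF4 and SRSF11 (columns) against hours of treatment in WT (top) and AMPK KO cells (bottom), with points for libraries and lines through means of 3, 1 colour per compound and the DMSO libraries at 0 h. Phenformin takes SRSF5 and SRSF6 to the lowest values at 16 h after a rise of SRSF6 at 4 h, and all 3 poisons lift SRSF4 above DMSO.

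Counted over the family at 16 h of phenformin, 8 SR genes fell and SRSF4 rose in WT cells, against 34.9% of all genes lower and 45.3% higher, and 8 fell and 2 rose in AMPK KO cells (37.7% and 41.2%). With quantile normalization SRSF11 rose in WT cells as well. At 4 h the family was evenly split, with 4 higher and 4 lower in WT cells (28.3% and 37.5% of all genes). CCCP at 16 h gave 8 lower and 1 higher in WT (26.6% and 44.1%) and 9 lower and 1 higher in AMPK KO cells (29.3% and 39.6%). Rotenone at 16 h gave 7 lower and 2 higher in WT (29.2% and 36.2%) and 6 lower and 3 higher in AMPK KO cells (27.9% and 35.3%), which became 7 lower and 2 higher with median-ratio scaling. Over the whole course all 10 SR genes changed with CCCP and phenformin in both genotypes, beside 90.7% and 90.8% of all genes with CCCP and 92.2% and 92.1% with phenformin in WT and AMPK KO cells. With rotenone 10 changed in WT and 9 in AMPK KO cells, beside 79.3% and 81.3%. Without replicate 2 the 10 became 6, beside 65.8%. The counts over the whole course do not set the family apart, and those at single times describe a set picked with falls in view.

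Phenformin and rotenone, a biguanide and a plant isoflavonoid that both act on complex I, were set side by side at matched times, at doses that the labels do not give, in 8 comparisons (4 times in each genotype) with p-values adjusted over all genes. In WT cells SRSF5 stood at 43.5, 31.9 and 29.2 TPM with phenformin and 91.97, 79.4 and 83.03 TPM with rotenone at 8 h. At 16 h the difference between the compounds was -1.86 ± 0.086 in WT cells (adjusted p = 3.0e-31) and -1.71 ± 0.086 in AMPK KO cells (adjusted p = 4.3e-29). SRSF6 was higher with phenformin at 4 h, by 0.29 ± 0.076, and lower at 16 h, by 1.17 ± 0.076, in WT cells. SRSF11 was higher with phenformin at 4 h in both genotypes, by 0.60 ± 0.092 and 0.63 ± 0.092, and at 16 h differed by 0.044 ± 0.092 (adjusted p = 0.68) and -0.070 ± 0.092 (adjusted p = 0.51). At 2 h SRSF2 was the single SR gene called different, and in AMPK KO cells alone, beside 6.77% of all genes there and 5.87% in WT cells. Over the whole course the compounds differed for 9 SR genes in WT and 10 in AMPK KO cells, beside 79.1% and 76.5% of all genes.

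The responses of AMPK KO and WT cells over the course differed for 5 SR genes with CCCP, a share close to the 52% of all genes, for 3 with phenformin (15.9%) and for none with rotenone (3.58%). These contrasts contain the WT DMSO libraries by which the genes were chosen, and line and genotype cannot be told apart. With rotenone, 3 of the 40 differences at single times had an unadjusted limma p under 0.05. Median-ratio scaling and the replicate block each called 1 SR gene over the course, beside 3.97% and 5.83% of all genes. Without replicate 2 or replicate 3 the CCCP count was 3, beside 27.8% and 26.9% of all genes. The CCCP genes were SRSF2, SRSF5, SRSF6, SRSF9 and SRSF10. SRSF2 was lower in WT than in AMPK KO cells at 8 h, with 103.4, 110.3 and 111.7 against 131, 139 and 132 TPM, and higher at 16 h, with 151, 147 and 143 against 107.3, 99.7 and 105.6 TPM. The difference of the responses was 0.33 ± 0.089 at 8 h (adjusted p = 0.0049) and -0.47 ± 0.089 at 16 h (adjusted p = 2.9e-05). SRSF5 had come back further in AMPK KO cells by 16 h, where the difference of the responses was 0.48 ± 0.12 (adjusted p = 0.0018), and without replicate 3 the adjusted p was 0.058, the highest of 9 alternatives, whose lowest was 1.0e-04. For phenformin at 16 h the falls of SRSF2, SRSF3 and SRSF7 were smaller in AMPK KO cells, by 0.27 ± 0.089, 0.28 ± 0.085 and 0.24 ± 0.066. At that time 13.9% of all genes were called. The 3 genes called over the phenformin course were SRSF5, SRSF6 and SRSF7. Without replicate 2 the count was 1, beside 2.63% of all genes, and without replicate 3 none was called, beside 2.28%.

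The arms were also compared under DMSO. The control DMSO libraries are part of the contrast by which the SR genes were chosen, so these differences and counts are a description and support nothing. In TFEB+TFE3 KO cells 8 SR genes were called lower than in their WT cells and none higher, beside 13.7% and 37.6% of all genes. SRSF6 stood at 100.7, 96.5 and 97.6 TPM in the knockout and 158, 157 and 146 TPM in WT cells, with no overlap and a difference of -0.64 ± 0.036. SRSF7 stood at 124.8, 116.4 and 122.3 against 200.3, 196 and 201 TPM, and SRSF5 was lower by 0.40 ± 0.045. After 16 h of 991 the order was reversed for SRSF6, with 49.2, 48.5 and 49.7 TPM in the knockout and 39.97, 42.2 and 42.4 TPM in WT cells, and for SRSF5, with 84.2, 78.03 and 80.7 and 62.3, 63.9 and 60.9 TPM. The responses of the knockout at 16 h were less negative by 0.88 ± 0.051 for SRSF6, 0.77 ± 0.064 for SRSF5 and 0.77 ± 0.044 for SRSF7, estimates without a test. In the other experiments the responses of SRSF5 at 16 h differed less between arms, by 0.29 ± 0.12 for AMPK KO, -0.027 ± 0.071 for ESRRA KO and 0.088 ± 0.066 for siRNA against PGC1A.

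In AMPK KO cells 5 SR genes were lower than in WT cells under DMSO, SRSF3, SRSF7, SRSF9, SRSF10 and SRSF11, by 0.12 to 0.22, beside 22.7% of all genes, and with median-ratio scaling 2 were called. Without replicate 2 the count was 3 and without replicate 3 it was 1. In either direction 38.9% of all genes were called in the main fit, 40.9% with that scaling, and 26% and 23% without replicate 2 and 3. In ESRRA KO cells SRSF6 was higher by 0.20 ± 0.037 and SRSF1 and SRSF9 were lower, beside 6.71% of all genes higher and 14.7% lower. Without replicate 3 the 3 calls became 1, and the share of all genes called went from 21.5% to 11.7%. With siRNA against PGC1A SRSF7 alone was lower, by 0.17 ± 0.048 (9.89% of all genes). Without replicate 1 no SR gene was called, and without replicate 3 SRSF2 was called in place of SRSF7. The share of all genes called in either direction was 24.2% in the main fit, and 14.9% and 18.1% without replicate 1 and 3. FNIP1 under DMSO stood at 224.6 to 234 TPM with siRNA against PGC1A and at 135 to 143 TPM with control siRNA, and at 175 to 187 TPM in ESRRA KO cells and 200.2 to 217 TPM in their WT cells, and its part in these differences was not tested. Between SA5 FNIP1 and WT FNIP1 limma called 0 of 10 SR genes, with 1 at an unadjusted p under 0.05 (10.3% of all genes called), and without the 2 libraries that stand apart it called 3, with SRSF2, SRSF4 and SRSF6 higher by 0.12 to 0.18, beside 13.7% of all genes called.

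The lists of other splicing genes were chosen with earlier results of these data known. Of all genes at 16 h, 45.3% were called higher and 34.9% lower with phenformin in WT cells (median 0.073), 34.8% and 27.1% with 991 in AMPK KO cells (median 0.029), and 31.5% and 12.9% with 991 in ESRRA KO cells (median 0.084). Of 25 SR-related proteins, at 4 h of phenformin 17 of 25 rose and 3 fell in WT cells, with a median of 0.36 against -0.045 over all genes. At that time 28.3% of all genes were called higher and 37.5% lower. At 16 h 11 of 25 rose and 10 fell (median 0.086). RBM25, a regulator of splice site choice, rose from 19.5 to 36.8 TPM on average (adjusted p = 3.0e-08), and CLASRP, a partner of CLK4, fell from 28.9 to 15.4 TPM (adjusted p = 1.0e-16). SRSF8, which was counted in this list and not among the 10 SR genes, fell from 17.8 to 8.65 TPM (limma adjusted p = 9.6e-28). With 991 in AMPK KO cells 10 of 25 rose and 10 fell (median 0.079) at 16 h, among them TRA2A, which binds the same kind of enhancer, with -0.50 ± 0.042. TRA2A fell in ESRRA KO cells too, by 0.81 ± 0.039. Of 11 tested kinases, phosphatases and importers of SR proteins, at 16 h of phenformin 9 of 11 rose and 1 fell (median 0.41) in WT cells. At 16 h of 991 in AMPK KO cells 3 of 11 rose and 5 fell (median -0.10). SRPK2, which phosphorylates SR proteins in the cytoplasm, rose from 12.5 to 23.7 TPM with phenformin (adjusted p = 4.9e-22) and by 0.60 ± 0.061 with 991 in AMPK KO cells. CLK3, a nuclear kinase of SR proteins, rose with phenformin by 0.78 ± 0.071 and fell with CCCP by 0.60 ± 0.071 in WT cells.

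The hnRNP proteins often act against SR proteins at the same exons. Of 22, at 16 h of phenformin 3 of 22 rose and 18 fell in WT cells, with a median of -0.59 against 0.073 over all genes. HNRNPD, a decay factor for AU-rich mRNA, fell from 324 to 88.7 TPM, and HNRNPLL rose by 0.47 ± 0.056. With 991, 1 of 22 rose and 17 fell (median -0.23) in AMPK KO cells and 6 of 22 rose and 9 fell (median -0.023) in ESRRA KO cells at 16 h. Of the 16 tested U1, U2 and U2AF proteins, 6 of 16 rose and 7 fell (median -0.053) with phenformin. SF3B5, a small subunit of the U2 particle, fell from 192 to 53.4 TPM, a difference of -1.83 ± 0.046, and SNRNP70, the U1 protein that SR proteins contact, fell by 0.82 ± 0.045. Of 10 factors of nonsense-mediated decay, 6 of 10 rose and 3 fell (median 0.33) with phenformin and 5 of 10 rose and 1 fell (median 0.15) with 991 in AMPK KO cells. SMG6, the endonuclease of that pathway, rose by 0.67 ± 0.072 with phenformin and SMG5 fell by 0.56 ± 0.042.

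The SR genes went together to different degrees. Over the means of 70 treated groups, each as a difference from DMSO of its arm, SRSF5 went most closely with SRSF7 (Pearson r = 0.738), and SRSF6 with SRSF2 (0.785) and SRSF3 (0.745), and the lowest coefficients of SRSF5 were weak, with SRSF11 (-0.326) and SRSF4 (-0.260). These coefficients carry no test, and the groups share DMSO libraries and include the control arms with 991 and SA5 FNIP1 with all libraries. Other genes tested in all tables were compared as well, leaving out symbols that start with SNOR, SCARNA, MIR, LOC or LINC or contain -AS. Of these 11752 genes, those most like SRSF5 were CYCS, which encodes cytochrome c (r = 0.879), CTPS1, an enzyme of CTP synthesis (0.850), and CHCHD7 (0.845). Those most like SRSF6 were BYSL, a factor of ribosome assembly (0.848), TIMM23, the channel of mitochondrial protein import (0.843), and GRWD1 (0.838). The tables hold 1 transcript per gene and do not separate its isoforms. GENCODE v29 lists at least 1 transcript marked for nonsense-mediated decay for each of the 10 SR genes, 6 for SRSF7, 3 for SRSF1 and 1 for SRSF6. That of SRSF6 has an exon of 268 bases outside the exons of the GENCODE transcript matched to the counted one. The matched transcript has 4325 bases and the counted one 3738. Inclusion of such exons was not measured.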

How the data were processed

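Polyadenylated RNA of HEK 293T cells was sequenced in 240 libraries, 80 groups of 3. The authors deposited 5 tables of TPM per RefSeq transcript. The submitters' processing notes name FastQC, STAR, HOMER and GRCh38, without versions. Strand setting and depth are not given in the sources used here, so no counting error can be given.

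Genes that reached 1 TPM in 3 or more libraries of their table were tested with limma 3.58.1 in R 4.3.3 on log2(TPM + 1), with 1 mean per group, all libraries of the table and a mean trend of the variance. P-values were adjusted by Benjamini-Hochberg over all genes tested (13617 in the AMPK table, 13317 in FNIP1, 13746 in TFEB and TFE3, 13378 in ESRRA and 13404 in PGC1A), and a call means an adjusted p under 0.05, two-sided. All 10 SR genes passed the filter. The understatement of change by the added 1 is largest for low genes. Whole courses were tested with the moderated F statistic over all times. The script was tested on simulated data. The members and the lists of other genes were chosen with earlier results of these data known, and the comparisons of neighbouring times and the setting without both SA5 FNIP1 libraries were chosen after seeing the data. Besides the SR genes, the text names at most the 2 genes of each list that rose most and the 2 that fell most at 16 h in a tested comparison, and the 3 genes most like SRSF5 and SRSF6. The alternatives were another scaling (quantile normalization or median ratios), adding 0.1 in place of 1, testing all genes, a replicate block, replicates left out, and fitting only the groups compared. Groups were taken from the sample tags, and tables were never combined in a test.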

Additional observations from a re-analysis of the deposited data

Results flagged for a closer look

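The response to CCCP over the course differed between AMPK KO and WT cells in the moderated F test of limma for SRSF2 (adjusted p = 4.3e-10), SRSF5 (adjusted p = 1.5e-05), SRSF9 (adjusted p = 2.6e-04), SRSF6 (adjusted p = 0.015) and SRSF10 (adjusted p = 0.020). For SRSF2 the sign of the difference changed between 8 and 16 h, from 0.33 ± 0.089 to -0.47 ± 0.089. The response to phenformin differed in the same test for SRSF7 (adjusted p = 0.0011), SRSF5 (adjusted p = 0.0036) and SRSF6 (adjusted p = 0.011). For SRSF5 the difference went from -0.29 ± 0.12 at 8 h to 0.26 ± 0.12 at 16 h, neither of which passed at its own time (adjusted p = 0.16 and 0.15). Both comparisons contain the WT DMSO libraries by which the genes were chosen, so these p-values are no independent evidence. Without replicate 2 or replicate 3 the CCCP count was 3, beside 27.8% and 26.9% of all genes. The phenformin count was 1 without replicate 2 and 0 without replicate 3, beside 2.63% and 2.28%.

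With 991, all 3 treated libraries of 1 arm lay above the mean of its DMSO libraries and all 3 of the other arm below theirs for the following genes, and these differences were not tested. AMPK KO exceeded WT cells by 0.43 for SRSF2 at 8 h. TFEB+TFE3 KO exceeded WT cells by 0.12 for SRSF9 at 2 h. ESRRA KO exceeded WT cells by 0.19 for SRSF5 at 2 h and by 0.16 for SRSF1 at 24 h. The ESRRA KO libraries of SRSF5 at 2 h lay within the range of their DMSO libraries.

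SA5 FNIP1 exceeded WT FNIP1 at 2 h by 0.38 for SRSF1, 0.47 for SRSF4, 0.65 for SRSF10 and 0.91 for SRSF11. At 4 h it did so by 0.53 for SRSF4, 0.40 for SRSF7, 0.59 for SRSF10 and 0.88 for SRSF11. At 16 h it did so by 0.39 for SRSF1, 0.48 for SRSF4, 0.67 for SRSF10 and 1.00 for SRSF11. Without that arm's 2 libraries that stand apart, the same differences were -0.014, -0.10, 0.076 and -0.11 at 2 h. At 4 h they were -0.041, 0.18, 0.015 and -0.13, and at 16 h -0.0039, -0.091, 0.092 and -0.014, in the same order of genes. Of these libraries, 1 is the library labelled SA5 FNIP1, DMSO, replicate 1, in which SRSF11 stood at 9.28 TPM against 86.3 and 81.5 TPM and SRSF10 at 7.23 TPM against 26.3 and 26.1 TPM in the other 2 of its group.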

How the results depend on the processing

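Leaving out the replicates of 1 number, the libraries that stand apart, or both kinds of library moved the SA5 FNIP1 results most, and other results that reversed were single genes near 0. For SA5 FNIP1 at 2 h of 991, SRSF1 was 0.15 with all libraries and was -0.24 with median-ratio scaling and ran from -0.26 to 0.36 with libraries left out. SRSF7 was 0.019 with all libraries and was -0.37 with median-ratio scaling and ran from -0.21 to 0.15 with libraries left out. SRSF4 was 0.41 with all libraries and ran from -0.16 to 0.70 with libraries left out. SRSF11 was 0.58 with all libraries and ran from -0.43 to 1.10 with libraries left out. For SA5 FNIP1 at 4 h of 991, SRSF7 was 0.32 with all libraries and was -0.14 with median-ratio scaling. SRSF4 was 0.26 with all libraries and ran from -0.30 to 0.54 with libraries left out. SRSF11 was 0.34 with all libraries and ran from -0.67 to 0.86 with libraries left out. For SA5 FNIP1 at 8 h of 991, SRSF7 was 0.091 with all libraries and was -0.26 with median-ratio scaling and ran from -0.13 to 0.19 with libraries left out. SRSF4 was 0.15 with all libraries and ran from -0.42 to 0.37 with libraries left out. SRSF10 was 0.034 with all libraries and ran from -0.54 to 0.21 with libraries left out. SRSF11 was 0.51 with all libraries and ran from -0.50 to 0.90 with libraries left out. For SA5 FNIP1 at 16 h of 991, SRSF1 was 0.14 with all libraries and was -0.32 with median-ratio scaling and ran from -0.27 to 0.42 with libraries left out. SRSF4 was 0.26 with all libraries and ran from -0.32 to 0.57 with libraries left out. SRSF10 was 0.32 with all libraries and ran from -0.26 to 0.68 with libraries left out. SRSF11 was 0.61 with all libraries and ran from -0.43 to 1.14 with libraries left out. Under DMSO, SA5 FNIP1 minus WT FNIP1, SRSF2 was -0.11 with all libraries and was 0.30 with median-ratio scaling and ran from -0.23 to 0.12 with libraries left out. SRSF6 was -0.039 with all libraries and was 0.37 with median-ratio scaling and ran from -0.17 to 0.19 with libraries left out. SRSF4 was -0.39 with all libraries and ran from -0.68 to 0.18 with libraries left out. Elsewhere SRSF9 became higher in AMPK KO cells at 2 h of CCCP with median-ratio scaling (0.086) and higher with phenformin than rotenone at 16 h in WT cells with quantile normalization (0.059), and SRSF1 became lower in ESRRA KO cells at 16 h of 991 with median-ratio scaling (-0.080). The cause was not tested.

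Of 10 SR genes, the number with a different response to phenformin in AMPK KO cells went from 3 to 5 with median-ratio scaling and ran from 0 to 5 without replicate 1, 2 or 3 in turn. The share of all genes was 15.9% in the main fit and 15.4% with that scaling. It was 25.2%, 2.63% and 2.28% without replicate 1, 2 and 3. For rotenone the number of SR genes went from 0 to 1 with median-ratio scaling and ran from 0 to 1, and for CCCP it ran from 3 to 7, with 5 in all libraries. The shares for rotenone were 3.58% in the main fit, 3.97% with that scaling and 7%, 0.237% and 0.133% without replicate 1, 2 and 3. For CCCP they were 52% in the main fit and 55.6%, 27.8% and 26.9% without replicate 1, 2 and 3. The number changed over the rotenone course in WT cells ran from 6 to 10, beside 76.2%, 65.8% and 61.2% of all genes without replicate 1, 2 and 3. Under DMSO, AMPK KO cells had 2 with median-ratio scaling and 3 with only the groups compared, and ran from 1 to 5. Those settings called 40.9% and 23.2% of all genes, and leaving out replicate 1, 2 or 3 called 41.9%, 26% and 23%. For siRNA against PGC1A the number under DMSO was 3 with median-ratio scaling, 2 with quantile normalization and 2 with only the groups compared, beside 24.4%, 22.3% and 17.5% of all genes. It ran from 0 to 1, beside 14.9%, 13.6% and 18.1% without replicate 1, 2 and 3. ESRRA KO cells ran from 1 to 3, beside 10.4%, 14.1% and 11.7%. SA5 FNIP1 under DMSO had 2 with median-ratio scaling and ran from 0 to 3, and over its course 2 with only the groups compared and ran from 2 to 10, where 10 was reached in each setting without DMSO replicate 1. Under DMSO 6.04% of all genes were called with that scaling, and between 0.342% and 13.7% with libraries left out. Over the course 10.4% were called with only the groups compared, and between 8.32% and 63.2% with libraries left out. The setting without both libraries was chosen after seeing the data.

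With the replicate number as a block the phenformin count was 5 and the rotenone count 1, beside 20.7% and 5.83% of all genes. The block moved no other count of SR genes by over 1.5 times. In the AMPK experiment the deviations of same-numbered libraries had a median correlation of 0.051 over 1683 pairs, of which 582 were over 0.1. The median for libraries of different numbers was -0.024. In the other 4 experiments the median of same-numbered libraries was between 0.0045 and 0.011. The numbers were not taken to pair libraries in the main fit, and in the AMPK experiment some same-numbered libraries did deviate together. Over single genes 6222 tested values kept their side of the threshold without reversing, 262 lost the call, 108 gained it and 48 reversed. A change of direction counted as reversed only where the value was called before or after it. TPM hold no counts, so what depth limits is unknown.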
